A study of Mus musculus with 18 samples.

Results

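The 42 genes described here encode proteins of the cell cycle. They were taken as a named list of gene symbols. No threshold on a measured value entered the rule, although the list was drawn up with earlier results of these data known. All 42 were found among the 49585 genes of the count table and passed the filter on low counts in both fits. They fall into 8 roles: 6 cyclins or cyclin-dependent kinases, 9 genes of replication origin licensing and firing, 6 of DNA synthesis, 3 transcription factors, 7 mitotic kinases, checkpoint proteins and chromosomal passenger proteins, 2 of the anaphase-promoting complex, 7 of the spindle and kinetochore, and the 2 chromosome proteins Mki67 and Top2a. The samples were CD45+ leukocytes of young adult Kaede mice, matched for age and sex within the study. Kaede is a fluorescent protein, expressed throughout the body in this transgenic strain, which light turns from green to red, so that leukocytes lit in the inflamed ear pinna or ankle joint can be recognized later in the draining lymph node.

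In the inflamed groups, Kaede recipients had received OT-II CD4+ T cells polarized in vitro towards Th1, then ovalbumin in complete Freund's adjuvant, and then a local challenge with 100 μg of heat-aggregated ovalbumin (HAO) in the footpad or the ear pinna. Photoconversion followed on a later day and tissue was taken the day after it. Kaede red+ cells that stayed in the tissue were called joint nonmigrated or skin nonmigrated, and those recovered from the node were called joint migrated or skin migrated. The labels of the other 2 groups read steady state, with titles that name PBS and KG for the joint-draining node and Naive for the skin-draining node. These are called joint LN steady and skin LN steady here. Their source labels describe cells that had come to the node from the joint or the ear, and the shared protocol names a sort of Kaede red+ cells. The letters KG are not explained, and whether the joint LN steady libraries hold green or red cells could not be settled from the labels, so comparisons with that group may be with unconverted node cells or with cells that had come from the joint. The shared protocol describes PBS challenge of primed mice for both sites, so whether the mice behind the Naive titles were primed is not clear from the labels. Each group had 3 libraries, each made from a pool of mice, so p-values measure the spread between pools.

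A dividing cell passes through phases in a fixed order. Late in G1, cyclin E and E2F proteins prepare entry into S phase; Cdc6 and Cdt1 load the Mcm2 to Mcm7 helicase on replication origins, which licenses them; nucleotides and the clamp Pcna then serve DNA synthesis; and cyclin B with Cdk1, the Aurora and Polo kinases, spindle motors and the anaphase-promoting complex carry out mitosis. Transcripts of the mitotic group accumulate mainly in G2 and M under the transcription factors B-Myb (Mybl2) and Foxm1, and resting lymphocytes are known to hold very little of them. T and B cells divide in lymph nodes after they meet antigen, neutrophil precursors divide before they differentiate, and mature neutrophils no longer divide. Red Kaede protein is shared between daughter cells at division and is not remade, so photoconverted cells that divide repeatedly lose their red label.

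The libraries of the inflamed skin groups held 19239531 to 22528895 counts assigned to genes and those of the inflamed joint groups 35554698 to 43814403, without overlap, so that site and depth cannot be told apart in the inflamed samples. The steady-state libraries held 28577566 to 42938378. Every skin LN steady library held more than every skin migrated one, so that depth and group cannot be told apart in that comparison either. In the count table, names of the inflamed skin libraries end in S and a number, and all others in R and a number. What these endings mean is not stated. Any difference that goes with them cannot be told apart from site in the inflamed samples, or from group between skin migrated and skin LN steady. The lowest count of any member in any library was 23, for Kif2c, so that no member was limited by the floor of 3 counts. Libraries of 1 group differed from each other across nearly all members at once. In joint nonmigrated cells, library 1 was the lowest for 40 of the 42 genes and library 3 the highest for 37. In skin nonmigrated cells, library 3 was the lowest for 35 and library 2 the highest for 40, and in skin migrated cells library 3 was the lowest for all 42. Levels are given as CPM, counts scaled to a common library total with TMM factors over all 18 libraries, and in each list of 3 the values stand for libraries 1, 2 and 3. A gene is called higher or lower where edgeR's quasi-likelihood test gave a Benjamini-Hochberg adjusted p below 0.05 over all genes tested and the log2 fold change was beyond 1.

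Most members were highest in the cells that had migrated from an inflamed site and lowest in the steady-state nodes. By group mean, 29 of the 42 were highest in skin migrated and 11 in joint migrated cells, and 34 were lowest in skin LN steady. The exceptions were E2f1, highest in joint nonmigrated cells, and Cdt1, highest in joint LN steady, while Mcm2 to Mcm7 were lowest in skin nonmigrated and Ccne1 and Cdt1 in joint nonmigrated cells. All 42 genes together took 0.336% of assigned counts in skin migrated library 2, near the 0.345% of library 1, and 0.215% in library 3. The share ran from 0.250% to 0.352% in joint migrated, from 0.0972% to 0.195% in joint nonmigrated, from 0.0643% to 0.115% in skin nonmigrated, from 0.0983% to 0.103% in joint LN steady and from 0.0785% to 0.0844% in skin LN steady. In these bulk samples, a larger share of dividing cells and more of each transcript per dividing cell cannot be told apart. Per kilobase of exon, the level over all libraries was highest for Pcna, at 52.8 CPM per kb, followed by Mcm4 at 23.7, Mcm6 at 22.4, Mcm3 at 21.4 and Mki67 at 20.9, and lowest for Cenpf at 1.19.

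The member with the highest CPM of each role shows how the roles differed. Ccna2, the cyclin of S phase and G2, measured 15.8, 27.0 and 11.1 CPM in skin nonmigrated, 20.1, 38.3 and 50.9 in joint nonmigrated, 89.6, 82.4 and 46.9 in skin migrated and 72.9, 49.1 and 60.5 CPM in joint migrated cells. In the steady-state nodes it was at 7.96, 5.74 and 6.35 CPM for the joint and 3.48, 2.99 and 3.79 CPM for the skin, under every inflamed library. Mcm6 spanned a narrower range, with 45.4, 73.0 and 44.5 CPM in skin nonmigrated and 68.4, 94.9 and 88.6 CPM in joint nonmigrated cells, so that the 69.8 to 80.8 CPM of the steady-state nodes fell within the range of the nonmigrated cells and all migrated libraries, at 142 CPM or more, lay above. Pcna was flatter still. It measured 121, 120 and 108 CPM in skin nonmigrated, 114, 128 and 138 in joint nonmigrated, 199, 160 and 134 in skin migrated, 168, 133 and 154 in joint migrated, 97.9, 122 and 140 in joint LN steady and 86.3, 80.4 and 79.6 CPM in skin LN steady, where only the last group lay under all others.

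The members of later phases followed Ccna2. Foxm1, the transcription factor of the G2/M programme, measured 14.2, 24.4 and 8.11 CPM in skin nonmigrated, 29.1 ± 12.3 (mean ± SD, n = 3; lowest 17.4 in library 1) in joint nonmigrated, 52.0, 49.1 and 29.5 in skin migrated and 56.0, 37.0 and 44.5 CPM in joint migrated cells, against 13.4, 11.4 and 9.79 CPM in joint LN steady and 9.04, 6.74 and 8.68 CPM in skin LN steady. Skin nonmigrated library 3 lay within the range of the steady-state libraries, and every other inflamed library lay above it. Bub1b, a kinase-like protein of the spindle checkpoint, stood at 17.5, 21.9 and 18.9 CPM in skin nonmigrated and 48.7, 45.3 and 29.4 CPM in skin migrated cells, against 7.03, 5.23 and 5.97 CPM in joint LN steady and 4.44, 4.17 and 5.01 CPM in skin LN steady. Kif11 measured 84.4, 72.9 and 46.9 CPM in skin migrated and 81.0, 52.9 and 70.0 CPM in joint migrated cells, against 11.4, 8.27 and 8.85 CPM in joint LN steady and 5.34, 4.45 and 6.17 CPM in skin LN steady, with no overlap between migrated and steady-state libraries. Ube2c showed the same order, with 7.62, 11.5 and 6.13 CPM in skin nonmigrated, 10.5, 24.4 and 32.8 in joint nonmigrated, 42.2, 36.6 and 22.0 in skin migrated and 1.91, 1.53 and 1.83 CPM in skin LN steady.

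**Figure D1:**
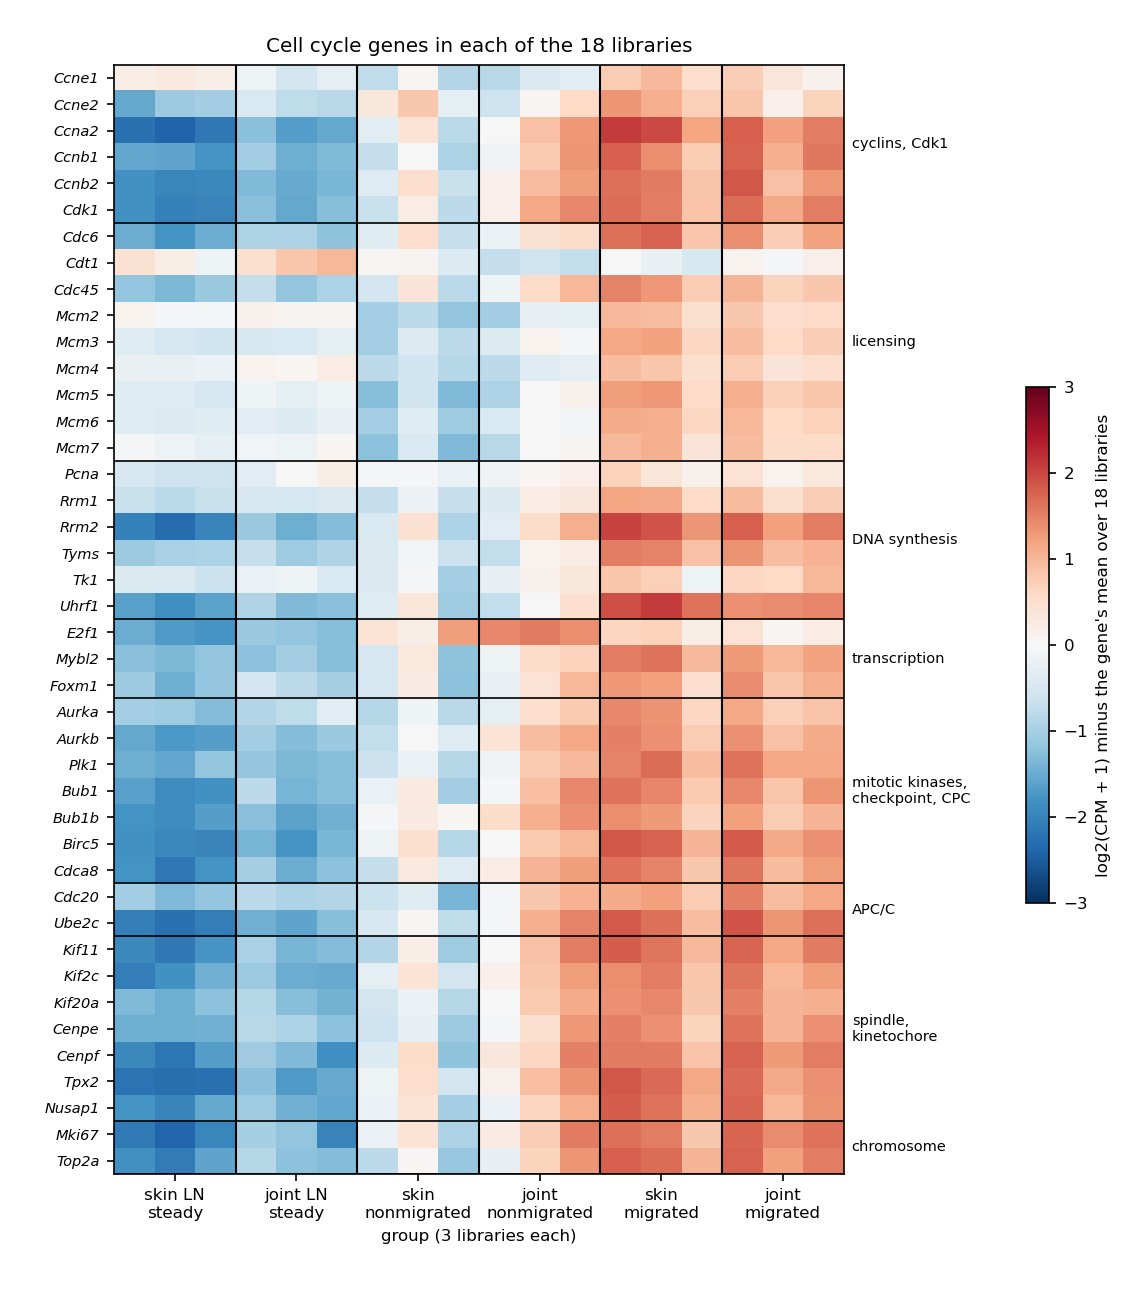
The heat map shows all 42 genes (rows, by role) in all 18 libraries (columns, 3 per group) as log2(CPM + 1) minus the gene's own mean over the 18 libraries. Both migrated groups are red for nearly every gene, and both steady-state groups are deepest blue for cyclin A and B and mitotic genes but pale for Mcm2 to Mcm7. Cdt1 is highest in joint LN steady and E2f1 in joint nonmigrated cells.

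Promoters of a few mitotic and replication members are shown because short motifs are known for each class. Mitotic genes and Mcm2 to Mcm7 also differed in level, as described further on. RefSeq promoters (GRCm38.p6) were at hand for 35 of the 42 members, and the 250 bases before each transcription start were searched on both strands for CHR (TTTGAA), the element bound by MuvB complexes at G2/M genes, for CCAAT, the NF-Y box, and for an E2F site, which was searched as TTTGGCG in 1 form, with TTTCGCG as the second and with TTTCCCG as the third. Matches could overlap. In the sequences, each read 5′ to 3′ on the strand of its gene, capitals mark the matches. Kif11, the motor that separates the spindle poles, lies on the plus strand with its last 100 bases before the start at chr19:37376282-37376381. Top2a, the topoisomerase that untangles sister chromatids, lies on the minus strand with the same stretch at chr11:99024190-99024289. For Mki67, a coat protein of mitotic chromosomes on the minus strand, positions -200 to -101 are shown, at chr7:135716480-135716579. Mcm6, a subunit of the helicase, is on the minus strand at chr1:128359706-128359805 for the last 100 bases, and Mcm5 on the plus strand at chr8:75109309-75109408 for positions -200 to -101. Cdt1, the helicase loader, is on the plus strand at chr8:122567915-122568014. None of these windows overlaps an annotated exon in GENCODE M21.
Kif11: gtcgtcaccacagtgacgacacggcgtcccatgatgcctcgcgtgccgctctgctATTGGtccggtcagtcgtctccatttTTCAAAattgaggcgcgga
Top2a: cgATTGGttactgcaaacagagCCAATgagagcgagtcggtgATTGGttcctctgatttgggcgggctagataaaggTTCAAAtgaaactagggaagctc
Mki67: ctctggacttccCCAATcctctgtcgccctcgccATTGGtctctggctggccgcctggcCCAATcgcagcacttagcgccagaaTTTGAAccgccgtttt
Mcm6: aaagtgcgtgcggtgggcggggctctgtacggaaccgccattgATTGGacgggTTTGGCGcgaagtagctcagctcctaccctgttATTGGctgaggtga
Mcm5: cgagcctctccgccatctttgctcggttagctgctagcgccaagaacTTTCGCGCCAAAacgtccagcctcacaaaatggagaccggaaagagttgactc
Cdt1: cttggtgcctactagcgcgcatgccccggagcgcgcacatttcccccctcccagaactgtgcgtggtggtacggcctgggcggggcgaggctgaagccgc

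The Kif11 stretch holds the NF-Y box, as ATTGG, from position -45 and CHR, as TTCAAA, from -19. In Top2a, 3 NF-Y boxes begin at -98, -78 and -58 and CHR begins at -23. A CHR and an NF-Y box both within 100 bases of the start were found in 5 of the 35 members, which were Cdc20, Cdk1, Kif11, Top2a and Ube2c, against 1.06% of all 32851 promoters of the same length. The Mcm6 stretch holds TTTGGCG from -47 between 2 NF-Y boxes, the Mcm5 stretch holds TTTCGCG from -153 overlapping CGCCAAA from -148, and the 100 bases shown for Cdt1 hold none of the motifs. E2F letters were present in 5 of the 14 matched members of licensing and DNA synthesis and in 3 of the 13 matched members of the mitotic kinase, anaphase-promoting complex and spindle roles, against 4.57% of all promoters. An NF-Y box was present in 10 of those 14 and 10 of those 13, against 33.8% of all promoters, and CHR in 2 and 4 of them, against 16.0%. These are matches of letters, and no binding was measured.

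In the skin, leukocytes that had migrated to the node held more of nearly the whole list than those that had stayed. Of the 42 genes 38 were called higher and none lower, with a median log2 difference of 1.75, where 15.7% of all 16777 genes tested were called higher and 19.7% lower with a median of 0.01. Every gene of the mitotic kinase, anaphase-promoting complex, spindle and chromosome roles was among them. The 4 that were not called were Ccne2 (log2 difference 0.79), Pcna (0.49), Cdt1 (-0.16) and E2f1 (-0.20). DESeq2 and each omission of a library left between 36 and 39 called, and an adjusted p limit of 0.001 left 16.

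Mki67, the usual marker of cycling cells, measured 121, 183 and 72.2 CPM in skin nonmigrated and 432, 402 and 244 CPM in skin migrated cells. The groups did not overlap, and library 3 was the lowest on each side. The log2 difference was 1.51 ± 0.377 (SE, edgeR adjusted p = 0.00495). For Mcm4, another helicase subunit and the member with the smallest adjusted p, levels of 45.5, 52.4 and 43.1 CPM in nonmigrated cells stood against 151, 141 and 111 CPM in migrated cells. All 3 migrated libraries were above every nonmigrated one, with a log2 difference of 1.51 ± 0.169 (edgeR adjusted p = 2.04e-05). Uhrf1, which brings the maintenance DNA methyltransferase to newly copied DNA, had the largest difference. It measured 30.6, 50.9 and 18.4 CPM against 154, 173 and 124 CPM, again with no overlap, and the log2 difference was 2.17 ± 0.361 (edgeR adjusted p = 0.000349).

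Other members that rose in the skin comparison carry out each step of division. The mitotic kinase Plk1 rose by 2.09, the G2/M cyclin Ccnb1 by 2.07 and the S and G2 cyclin Ccna2 by 2.02 on the log2 scale. Among replication genes, Mcm5 rose by 2.13 and Rrm2, the regulated subunit of ribonucleotide reductase, by 2.00. Foxm1 and Mybl2, which drive the transcription of G2/M genes, rose by 1.48 and 1.84. The marker lists also moved with migration: the summed level of 6 macrophage and monocyte genes ran from 2496 to 9203 CPM in cells left in the skin and from 413 to 662 CPM in those that had left it, and that of 6 neutrophil genes 1554 to 2747 against 16.7 to 34.0 CPM. The sum of 6 T cell genes was 284 to 786 CPM against 1319 to 1416, and in nonmigrated library 3, the lowest for 35 of the 42 cell cycle genes, macrophage genes were highest and T cell genes lowest. Their part in the difference was not tested.

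In the joint, the same comparison gave a lower median difference. The share of members called higher was near that of all genes, and the share called lower was under it. Of the 42 genes, 7 were called higher and 1 lower, with a median log2 difference of 0.69, where 16.0% of all genes were called higher and 18.4% lower with a median of 0.02. Of the 42 differences 40 were positive. The 7 were Ccne1, Mcm2, Mcm4, Mcm5, Rrm2, Tyms and Uhrf1, and none of the 16 genes of the mitotic kinase, anaphase-promoting complex and spindle roles was called. Without joint nonmigrated library 1 the counts were 2 higher and 1 lower, without joint nonmigrated library 3 they were 14 and 1, and without joint migrated library 1 they were 3 and 1. Cell type markers moved with migration here too. Neutrophil genes summed to 5438 to 16458 CPM in joint nonmigrated and 38.3 to 100 CPM in joint migrated cells, and macrophage and monocyte genes to 16200 to 19761 against 376 to 493 CPM. T cell genes summed to 143 to 287 against 1218 to 1654 CPM, and dendritic cell genes to 82.3 to 123 against 2034 to 5247 CPM. All 6 genes of each of these 4 lists were above 3 counts in every library of both groups, and their part in the difference was not tested.

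Mcm4 measured 45.7, 60.5 and 67.1 CPM in joint nonmigrated and 134, 104 and 112 CPM in joint migrated cells. The groups did not overlap, and the log2 difference was 1.01 ± 0.166 (edgeR adjusted p = 0.000326), the smallest adjusted p of the list. Uhrf1 measured 23.2, 39.4 and 56.6 CPM against 104, 108 and 111 CPM, with a log2 difference of 1.44 ± 0.351 (edgeR adjusted p = 0.0044), the largest of the list. Tyms, the enzyme that makes thymidylate, rose by 1.28, Mcm2 by 1.13 and Mcm5 by 1.10 on the log2 scale. Ccne1, the cyclin of the G1 to S step, differed by 1.03 ± 0.284 (edgeR adjusted p = 0.00878).

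Mki67 measured 163, 231 and 409 CPM in joint nonmigrated and 465, 368 and 431 CPM in joint migrated cells, so that the highest nonmigrated library lay above the lowest migrated one. The log2 difference of 0.66 had a 95% interval from -0.15 to 1.46 and did not pass the test (edgeR adjusted p = 0.153). Top2a showed the same overlap, with 60.1, 114 and 183 CPM against 248, 169 and 209 CPM and a log2 difference of 0.81 with an interval from -0.04 to 1.66. For Bub1b 27.0, 38.5 and 48.1 CPM stood against 43.7, 31.2 and 37.4 CPM, a log2 difference of -0.01 with an interval from -0.52 to 0.49.

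E2f1, a transcription factor that switches on replication genes, was the member called lower in joint migrated cells. Its levels were 37.5, 40.6 and 36.3 CPM in joint nonmigrated and 18.3, 13.9 and 15.5 CPM in joint migrated cells. Every nonmigrated library was above every migrated one, and E2f1 fell by 1.26 on the log2 scale (SE 0.251, edgeR adjusted p = 0.00121). In skin nonmigrated cells the mean was 22.1 ± 9.48 CPM (SD, n = 3), from 15.4 CPM in library 2 to 33.0 CPM in library 3, where the other members were mostly lowest. Against the 21.1, 21.8 and 15.0 CPM of skin migrated cells the difference was -0.20 with an interval from -0.75 to 0.35. Cdt1 also stood apart: it measured 32.8, 36.1 and 32.2 CPM in joint nonmigrated and 59.4, 52.5 and 60.9 CPM in joint migrated cells, without overlap, and its log2 difference of 0.78 ± 0.157 passed the p limit (edgeR adjusted p = 0.00139) but not the fold limit. E2f1 and Cdt1 were singled out after their values were seen.

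**Figure D2:**
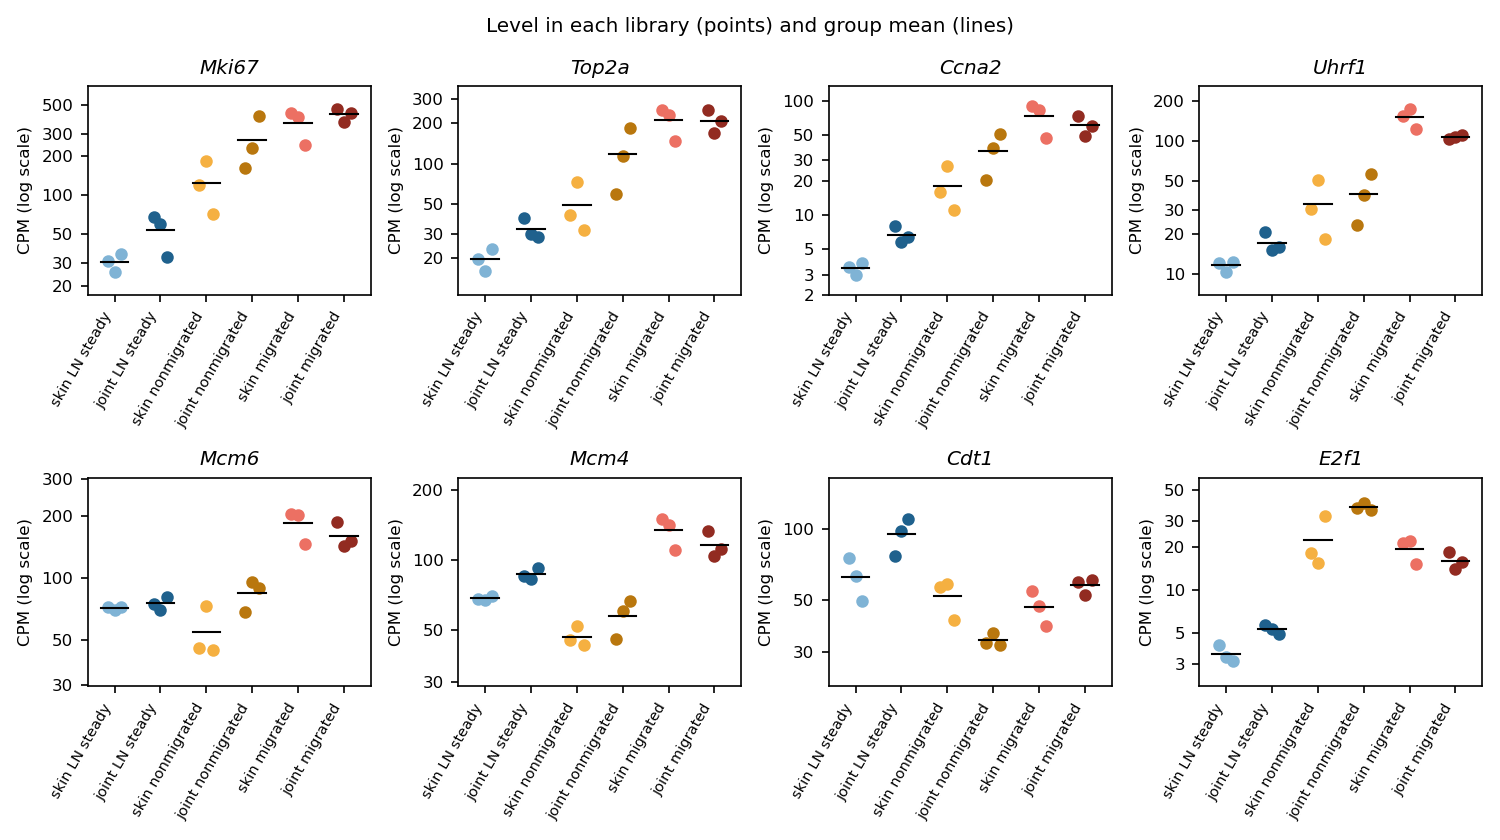
Each panel plots 1 gene, with CPM on a log scale against the 6 groups; points are libraries and lines are group means. Mki67, Top2a, Ccna2 and Uhrf1 rise from steady-state nodes through nonmigrated to migrated cells, Mcm4 is above and Mcm6 overlaps the nonmigrated level in the steady-state nodes, Cdt1 peaks in joint LN steady and E2f1 in joint nonmigrated cells.

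Whether migrated and nonmigrated cells differed by more in skin than in joint was tested as an interaction. The interaction was negative for 41 of the 42 genes, with a median of -0.99 on the log2 scale against -0.01 over all genes. A negative value means a smaller rise in the joint, or for E2f1, lower in migrated cells at both sites, a larger fall there. Only Aurkb, the catalytic subunit of the chromosomal passenger complex, was called lower, where 2.17% of all genes were called lower and 3.96% higher. Aurkb measured 8.45 ± 2.39 CPM (mean ± SD, n = 3) in skin nonmigrated cells, with 6.24 and 8.11 CPM in libraries 1 and 3 and the highest value in library 2, and 33.4, 30.0 and 19.3 CPM in skin migrated cells. In the joint it measured 15.0, 21.7 and 25.6 CPM in nonmigrated cells and 25.3 ± 4.44 CPM in migrated cells, with 29.9 and 25.1 CPM in libraries 1 and 3 and the lowest value in library 2. The skin groups did not overlap and the joint groups did. The interaction was -1.41 ± 0.381 (edgeR adjusted p = 0.0434), and 23 of the 42 genes had an unadjusted p under 0.05. The number called went from 0 to 7 over the alternatives, with 7 by DESeq2 and 7 where all 18 libraries shared 1 fit, and from 0 to 6 where 1 library was left out. It was 0 without skin nonmigrated library 1, skin migrated library 2, joint nonmigrated library 2 or 3, or joint migrated library 2 or 3. It was 2 without skin nonmigrated library 2 or skin migrated library 3, 3 without skin nonmigrated library 3 and 6 without joint nonmigrated library 1, and without skin migrated library 1 a single gene was called, in the positive direction. Cdt1 was the gene with a positive interaction, 0.94 ± 0.223 (edgeR adjusted p = 0.0276), under the fold limit.

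Among cells that had stayed in the tissue, those of the joint held more of the mitotic genes than those of the skin. Of the 42 genes 13 were called higher and none lower, with a median log2 difference of 0.87, where 5.45% of all genes were called higher and 8.86% lower with a median of 0.01. The 13 were Ccnb1 and Cdk1, the mitotic kinase group members Aurka, Aurkb, Plk1 and Cdca8, both genes of the anaphase-promoting complex, Kif11, Kif20a and Cenpe, and Mki67 and Top2a. None of the 9 licensing genes, the 6 DNA synthesis genes or the 3 transcription factors was called. Cdc20, which activates the anaphase-promoting complex, measured 11.2, 20.9 and 24.8 CPM in joint and 6.96, 8.71 and 3.74 CPM in skin nonmigrated cells. The groups did not overlap, and the log2 difference was 1.55 ± 0.339 (edgeR adjusted p = 0.00677), the largest of the list. The smallest adjusted p was that of Aurkb, whose values are given above, with a log2 difference of 1.29 ± 0.275 (edgeR adjusted p = 0.00584). Kif11 measured 23.1, 43.5 and 69.3 CPM against 12.1, 26.7 and 10.6 CPM. Its lowest joint library lay under its highest skin library, as was the case for Mki67, Top2a, Ccnb1, Cdk1, Ube2c, Aurka and Cdca8. The sites did not overlap for Cdc20, Aurkb, Plk1, Kif20a and Cenpe.

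This comparison depended on single libraries. The count was 3 without skin nonmigrated library 1, 26 without skin nonmigrated library 2 and 8 without skin nonmigrated library 3. It was 20 without joint nonmigrated library 1, 5 without joint nonmigrated library 2 and 4 without joint nonmigrated library 3, and 4 where only the 6 libraries compared were fitted. All 8 genes of a granulocyte precursor list were above 3 counts in every joint nonmigrated library, with summed levels of 3641, 7830 and 12440 CPM, against 34.1, 57.1 and 16.8 CPM and 4 of 8 genes in the skin. In joint libraries this sum was lowest in library 1 and highest in library 3. Most of it came from Ltf, at 1234, 2517 and 4275 CPM, and Ngp, at 2146, 4134 and 7084 CPM. Mpo, Elane, Prtn3 and Ctsg of the list were instead highest in library 2, with Mpo at 142, 670 and 584 CPM. Ms4a3 and Fcnb were highest in library 3. The mitotic genes were lowest in library 1 and highest in library 3, summed over 16 genes at 217, 372 and 509 CPM. The joint libraries stood in the same order for the neutrophil list, at 5438, 9839 and 16458 CPM, for the T cell list, at 143, 234 and 287 CPM, and for the activated T cell list, at 92.4, 146 and 227 CPM. The sites differed in other lists as well. Macrophage and monocyte genes summed to 16200 to 19761 CPM in joint and 2496 to 9203 CPM in skin nonmigrated cells, and neutrophil genes to 1554 to 2747 CPM in the skin. Dendritic cell genes summed to 82.3 to 123 CPM in joint and 311 to 1034 CPM in skin nonmigrated cells, while the T cell lists of the sites overlapped at the lower end, with 284 to 786 CPM in the skin. Activated T cell genes summed to 763, 849 and 266 CPM in skin nonmigrated cells, above every joint nonmigrated library. The 6 precursor B cell genes summed to 30.0, 23.7 and 127 CPM in joint and to 0.180, 1.93 and 2.70 CPM in skin nonmigrated cells. Stroma and epithelium genes summed to 99.0, 116 and 230 CPM in joint and to 302, 419 and 242 CPM in skin nonmigrated cells. Of this list, Krt5 was at 72.4, 149 and 12.3 CPM in skin and at most 0.465 CPM in joint nonmigrated cells. Col1a1 and Col1a2 overlapped between the sites. Erythroid precursor genes summed to at most 7.49 CPM in any library. The part of these cells in the difference was not tested.

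Once cells had reached the node, no difference between the sites was detected. None of the 42 genes was called between joint migrated and skin migrated cells by edgeR or DESeq2, none had an unadjusted p under 0.05, and the median log2 difference was -0.12, where 0.560% of all genes were called higher and 0.578% lower. The 95% interval of the difference included 0 for all 42 genes and lay wholly between -1 and 1 for 30 of them, and the widest bounds reached -1.37 and 1.13. Mki67 was at 465, 368 and 431 CPM in joint and 432, 402 and 244 CPM in skin migrated cells, a difference of 0.23 with an interval from -0.57 to 1.04. Top2a differed by -0.01, with an interval from -0.85 to 0.84. Pcna, the clamp that holds polymerases on DNA and the DNA synthesis member with the highest CPM, measured 168, 133 and 154 against 199, 160 and 134 CPM, with an interval from -0.43 to 0.21. The B cell list summed to 720 to 1000 CPM in joint and 116 to 211 CPM in skin migrated cells, so that the cell makeup of the groups was not equal.

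**Figure D3:**
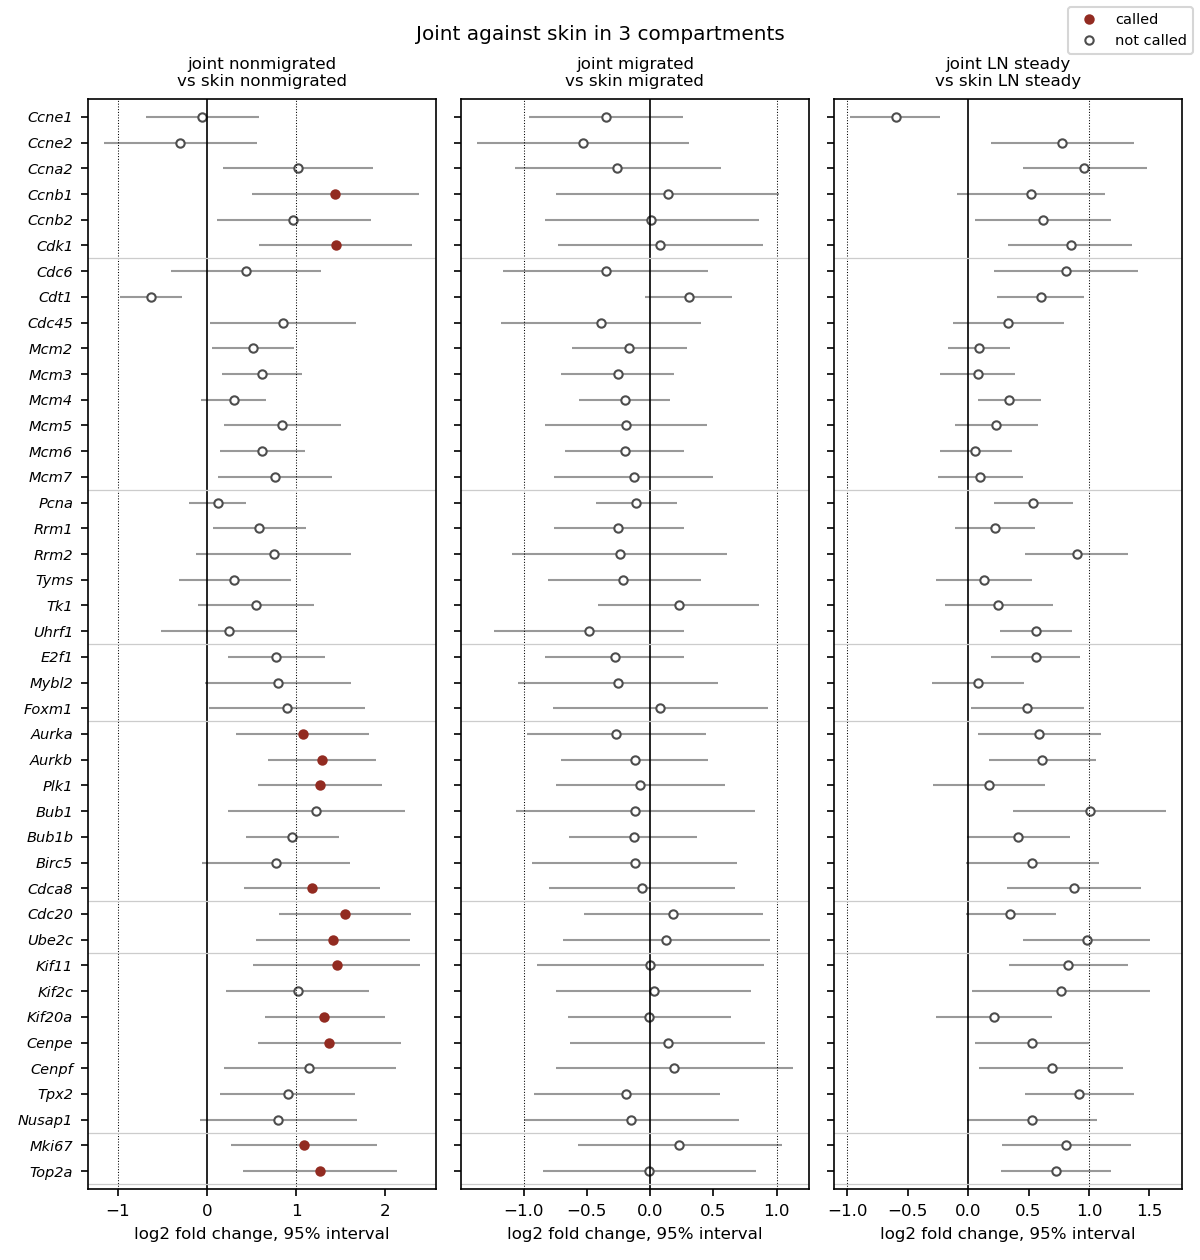
Each row is 1 of the 42 genes and each panel 1 comparison of joint with skin; points are log2 fold changes, lines their 95% intervals, dotted lines mark a log2 fold change of -1 and 1, and filled points were called. Filled points occur in the nonmigrated panel, among the cyclin B, Cdk1 and mitotic rows, and in neither of the other panels.

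Against the steady-state nodes, cells that had migrated from an inflamed site held far more of the mitotic genes. In the joint-draining node 36 of the 42 were called higher and none lower, with a median log2 difference of 2.59, where 16.9% of the 17107 genes tested were called higher and 7.31% lower with a median of -0.02. In the skin-draining node 38 were called higher and none lower, with a median of 3.07, where 21.5% of all genes were called higher and 15.0% lower with a median of 0.00. All 7 genes of the spindle and kinetochore role were called in both, with log2 differences of 2.53 to 3.33 in the joint and 2.89 to 4.24 in the skin comparison. The 9 licensing genes changed less as a group, with a median of 1.12 in the joint and 1.40 in the skin comparison, but not all did. Mean Cdc6 was 2.94 CPM in joint LN steady and 16.6 in joint migrated, 1.67 in skin LN steady and 21.2 in skin migrated cells. For Cdc45 these means were 4.05, 16.3, 3.20 and 21.5 CPM. The DNA synthesis gene Rrm2 also rose strongly, with means of 11.9, 90.7, 6.39 and 107 CPM in the same order.

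Mki67 measured 68.4, 60.5 and 33.4 CPM in joint LN steady and 31.0, 25.6 and 35.0 CPM in skin LN steady, and each of these values was under those of all 12 inflamed libraries. Its log2 difference from migrated cells was 3.00 ± 0.263 for the joint (edgeR adjusted p = 7.94e-07) and 3.59 ± 0.271 for the skin (edgeR adjusted p = 1.06e-07). Top2a, at 39.5, 30.2 and 28.6 CPM in joint LN steady and 19.6, 16.0 and 23.5 CPM in skin LN steady, differed by 2.70 ± 0.219 and 3.44 ± 0.228. Ube2c, the ubiquitin-conjugating enzyme of the anaphase-promoting complex, had the largest difference in the joint comparison. It measured 3.43, 3.04 and 3.99 CPM in joint LN steady and 43.7, 29.3 and 36.9 CPM in joint migrated cells, a log2 difference of 3.42 ± 0.233 (edgeR adjusted p = 9.42e-08). In the skin comparison Ccna2 differed the most, with 3.48, 2.99 and 3.79 CPM in skin LN steady and 89.6, 82.4 and 46.9 CPM in skin migrated cells, a log2 difference of 4.45 ± 0.253 (edgeR adjusted p = 9.26e-09). Neither pair of groups overlapped. Uhrf1 had the smallest adjusted p in both comparisons, with 20.6, 15.1 and 15.9 CPM in joint LN steady and 12.1, 10.4 and 12.3 CPM in skin LN steady. It rose by 2.68 ± 0.143 in the joint (edgeR adjusted p = 1.22e-08) and by 3.73 ± 0.151 in the skin comparison (edgeR adjusted p = 9.74e-10) on the log2 scale.

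The members that were not called were all genes of the G1 to S step or of replication. In the joint comparison they were Ccne1, Cdt1, Mcm2, Mcm4, Mcm7 and Pcna, and in the skin comparison Ccne1, Cdt1, Mcm2 and Mcm4. Mcm6, the licensing gene with the highest CPM, measured 74.2, 69.8 and 80.8 CPM in joint LN steady and 72.1, 69.8 and 72.1 CPM in skin LN steady, against 187, 142 and 151 CPM in joint migrated and 204, 202 and 145 CPM in skin migrated cells. It rose by 1.13 and 1.40 on the log2 scale, less than any spindle gene. Mcm4 measured 85.6, 83.2 and 92.7 CPM in joint LN steady, above all 3 joint nonmigrated libraries and under all 3 joint migrated ones, and differed from the latter by 0.45 ± 0.121 (edgeR adjusted p = 0.00719). Cdt1 ran the other way. It measured 76.8, 98.3 and 110 CPM in joint LN steady, above every inflamed library of either site, and the difference of joint migrated cells was -0.69 ± 0.167 (edgeR adjusted p = 0.00382), under the fold limit. In skin LN steady Cdt1 was at 75.1, 63.1 and 49.3 CPM, where the last value lay within the range of skin migrated cells.

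**Figure D4:**
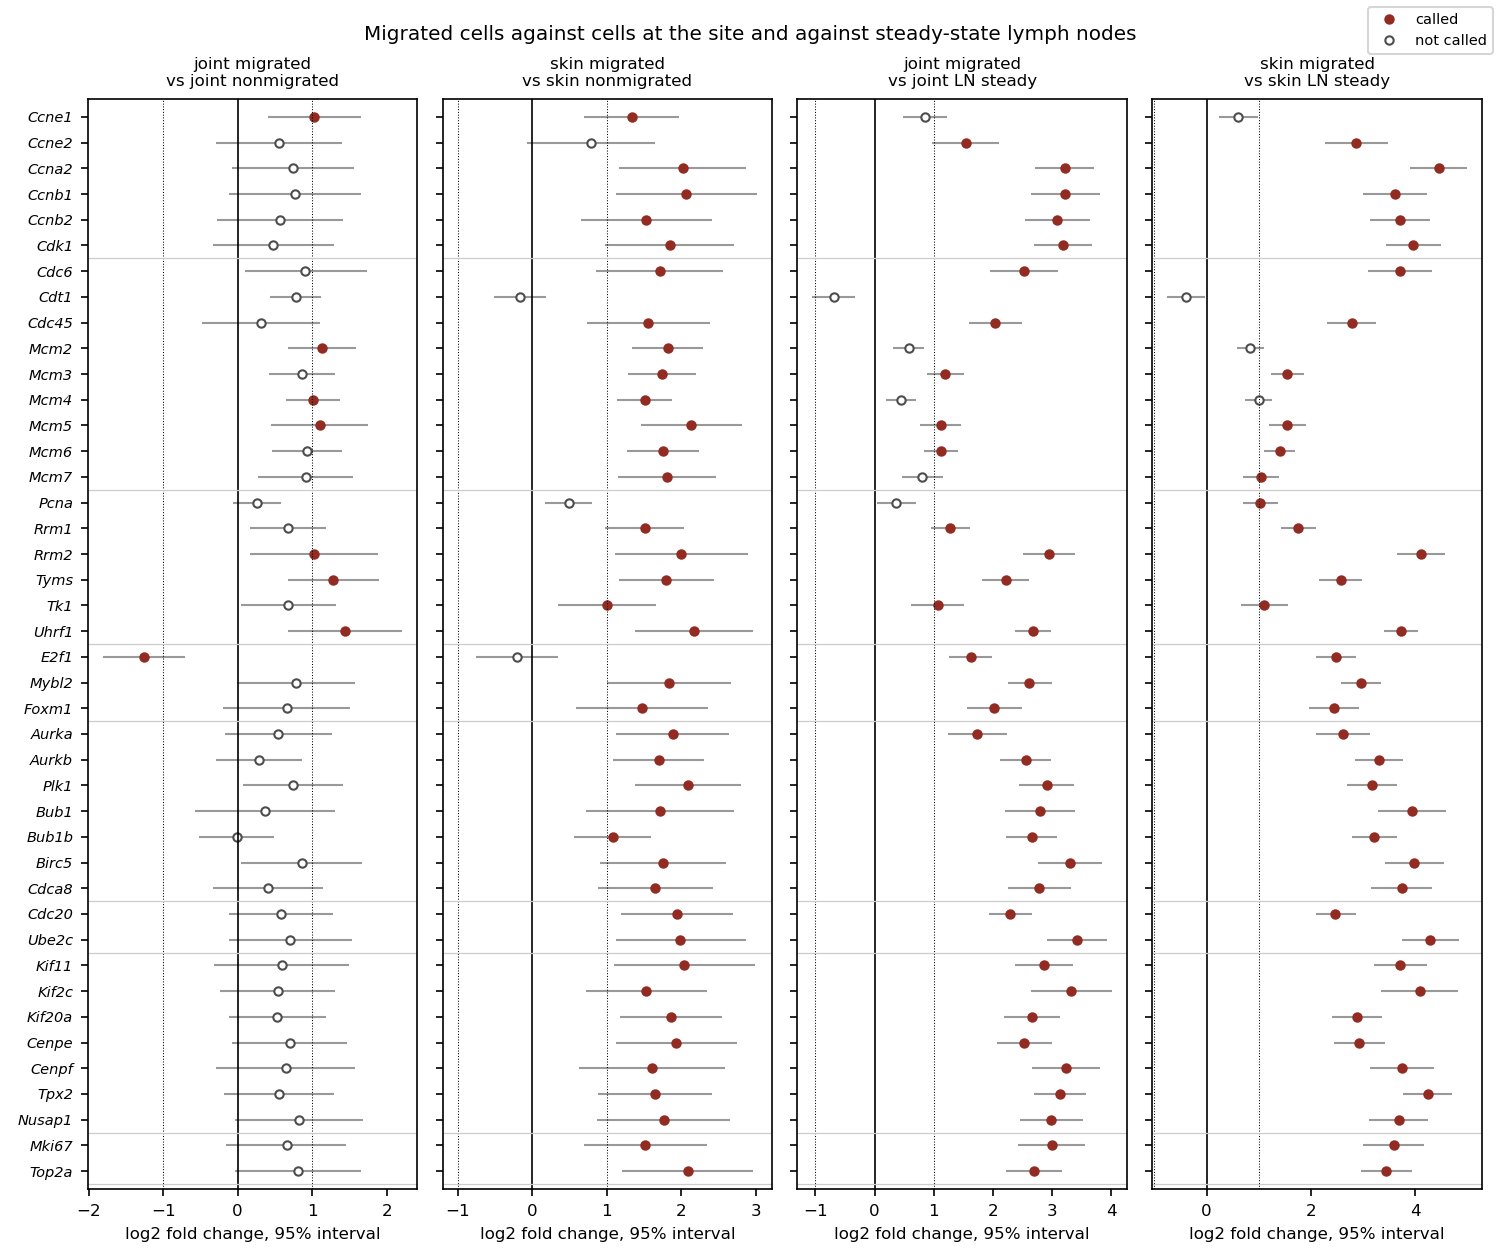
Each row is 1 of the 42 genes and each panel 1 comparison; points are log2 fold changes, lines their 95% intervals, dotted lines mark a log2 fold change of -1 and 1, and filled points were called. The skin panel against nonmigrated cells has 38 filled points and the joint panel 8, while both panels against steady-state nodes show the helicase rows (Mcm2 to Mcm7) nearer to 0 than the cyclin A, cyclin B and spindle rows.

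The summed levels show this split by library. Mcm2 to Mcm7 summed to 371 to 412 CPM in joint LN steady and 339 to 363 CPM in skin LN steady, which was above the 201 to 295 CPM of skin nonmigrated cells and within the 260 to 402 CPM of joint nonmigrated cells except for 1 library of joint LN steady at 412. The 16 genes of the mitotic kinase, anaphase-promoting complex and spindle roles summed to 69.8 to 89.2 CPM in joint LN steady and 46.1 to 55.0 CPM in skin LN steady, under the 115 to 232 CPM of skin nonmigrated and the 217 to 509 CPM of joint nonmigrated cells. Both sums were higher in migrated cells, at 617 to 895 CPM for the helicase genes and 385 to 654 CPM for the mitotic genes. Relative to skin nonmigrated cells, the steady-state libraries thus stood higher for the helicase genes and lower for the mitotic genes, whereas relative to joint nonmigrated cells they were lower for the mitotic genes and overlapped for the helicase genes. This is a description, since no test between these groups was made.

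**Figure D5:**
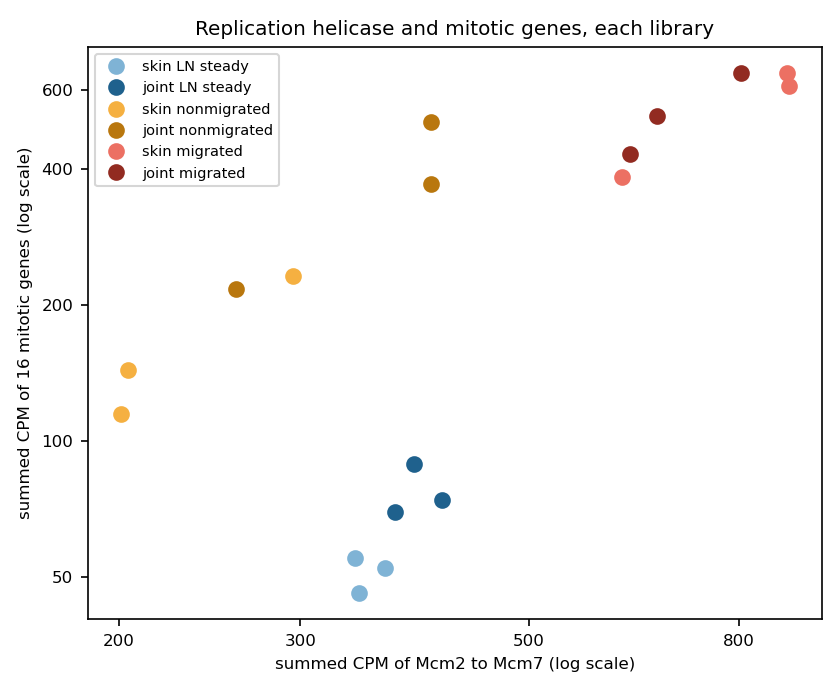
Each point is 1 library, with the summed CPM of the 6 helicase genes on the x axis and of the 16 mitotic genes on the y axis, both on log scales. The 6 steady-state libraries lie at the bottom, at 46.1 to 89.2 CPM of mitotic genes, while their helicase sums of 339 to 412 CPM lie above those of skin nonmigrated and overlap those of joint nonmigrated cells; the 6 migrated libraries lie at the upper right.

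Cell type markers differed between these groups as well. The dendritic cell list of 6 genes summed to 2034 to 5497 CPM in migrated cells and to 467 to 776 CPM in steady-state nodes. Nearly all of the steady-state sum was Ccr7, at 454 to 764 CPM. Flt3 of the same list was at 152 to 430 CPM in migrated cells and 5.24 to 7.92 CPM in steady-state nodes. The activated T cell list summed to 871 to 1148 against 164 to 250 CPM, the B cell list to 116 to 1000 against 2948 to 4589 CPM, and the T cell list to 1218 to 1654 against 1332 to 1861 CPM. Fscn1, a marker of migratory dendritic cells, was at 2.73 to 5.90 CPM in the steady-state libraries and 1164 to 3640 CPM in the migrated ones. The part of these differences in the cell cycle values was not tested.

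Joint LN steady and skin LN steady differed in 1 direction for nearly all members, but none of the 42 genes was called between them by edgeR, where 3.23% of all genes were called higher and 0.655% lower. DESeq2 called 1, and 9 passed the adjusted p limit alone, all of them higher in the joint-draining node. Without joint LN steady library 2 the count was 3, and without library 3 it was 1. The difference was positive for 41 of the 42 genes, the median was 0.53 against 0.00 over all genes, and 25 had an unadjusted p under 0.05. Rrm2 had the smallest adjusted p of the list, with 13.5, 10.5 and 11.8 CPM in joint and 6.77, 5.40 and 7.00 CPM in skin LN steady, without overlap, a log2 difference of 0.90 ± 0.199 (edgeR adjusted p = 0.0142). Ccne1 was the exception to the direction, at 9.79, 7.29 and 8.85 CPM against 12.8, 13.8 and 12.6 CPM. The interval lay wholly between -1 and 1 for 21 of the 42 genes, so that differences beyond these limits are not excluded for the other 21, and the highest bound was 1.64. Many cell type lists were also higher in the joint-draining node. Neutrophil genes summed to 429 to 847 CPM in joint and 12.9 to 20.6 CPM in skin LN steady. Granulocyte precursor genes stood at 181 to 295 against 2.15 to 4.49 CPM, and macrophage and monocyte genes at 430 to 638 against 70.6 to 96.3 CPM. Nearly all of the granulocyte precursor sum in joint LN steady was Ltf, at 69.0 to 111 CPM, and Ngp, at 107 to 181 CPM. Mpo was at 1.04 to 1.60 CPM and Elane at 0.295 to 0.690 CPM in joint LN steady. The B cell, precursor B cell, germinal centre B cell, plasma cell and activated T cell lists were higher there too, without overlap. T cell genes, at 1332 to 1651 against 1839 to 1861 CPM, and stroma and epithelium genes went the other way. Dendritic cell and erythroid precursor lists overlapped. Their part was not tested.

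The rise over the steady-state node was tested for a difference between sites with a second interaction. It was smaller in the joint for 41 of the 42 genes, and 5 were called lower, where 3.78% of all genes were called lower and 2.33% higher. They were Ccne2, Ccna2, Rrm2, Uhrf1 and Tpx2, a spindle assembly factor that activates Aurka. Uhrf1 had the smallest adjusted p, with an interaction of -1.05 ± 0.194 (edgeR adjusted p = 0.00472), and the E cyclin Ccne2 the largest size. Ccne2 measured 3.43, 2.60 and 2.42 CPM in joint LN steady and 9.71, 5.75 and 8.66 in joint migrated cells, against 1.10, 1.85 and 1.96 in skin LN steady and 14.1, 11.9 and 8.95 CPM in skin migrated cells. The interaction was -1.32 ± 0.374 (edgeR adjusted p = 0.0406), while at steady state the level of Ccne2 was 0.78 higher in the joint-draining node on the log2 scale. None of the 5 was called where all 18 libraries shared 1 fit. With 1 library left out the count ran from 0, without skin migrated library 1, skin LN steady library 2, joint migrated library 2 or joint LN steady library 1, to 10 without skin migrated library 3. It was 1 without skin migrated library 2, 2 without skin LN steady library 1 or 3, and 3 without joint LN steady library 3.

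Of other genes of the pathway, 26 further mitotic genes and 26 further replication genes were examined as lists. In the skin 20 of the mitotic genes were called higher and 1, Ccnf, lower in migrated than in nonmigrated cells, and 17 of the replication genes were called higher. The shares over all genes were 15.7% higher and 19.7% lower. In the joint 2 of the 26 mitotic and 7 of the 26 replication genes were called higher and none lower, against 16.0% of all genes higher, so that the mitotic share is under that of all genes and the replication share somewhat above it. Against the steady-state node 23 of 26 mitotic and 15 of 26 replication genes were called higher in the joint and 24 and 19 in the skin, with none lower, where 16.9% and 21.5% of all genes were called higher. Espl1, the protease separase that cuts cohesin, rose by 3.53 in the joint and 4.50 in the skin comparison on the log2 scale, and the kinase Melk by 3.57 and 4.93. Between joint and skin migrated cells none of the 52 was called.

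Genes of early G1 and cyclin-dependent kinase inhibitors were examined as further lists. Of 16 genes of G1 control 3 were called higher in each comparison with a steady-state node, 3 in migrated against nonmigrated cells of the joint and 5 in those of the skin, with none lower in any of these. Beside the 16.9% and 21.5% of all genes called higher against the steady-state node, and the 16.0% and 15.7% against nonmigrated cells, 3 of 16 is near the share of all genes. The 5 of 16 in the skin is above the 15.7% of all genes. Ccnd1, a D-type cyclin that links growth signals to the cycle, measured 51.2, 85.0 and 77.7 CPM in joint migrated, 114, 141 and 147 in skin migrated and 2.51 to 4.58 CPM in the 6 steady-state libraries. Its log2 differences from the steady-state node were 4.41 ± 0.236 and 5.18 ± 0.243. Of 7 inhibitors 4 were called higher and none lower against the steady-state node at each site. Against nonmigrated cells 2 were higher and 1 lower in the joint, and 3 higher and 2 lower in the skin. Over all genes, 16.0% were called higher and 18.4% lower in the joint, and 15.7% and 19.7% in the skin. Cdkn1a, which encodes p21, measured 75.8, 146 and 200 CPM in joint migrated and 203, 157 and 186 CPM in skin migrated cells, against 11.7, 14.5 and 14.2 CPM and 2.80, 1.90 and 1.71 CPM in the matching steady-state nodes. It was higher still in nonmigrated cells, at 348, 370 and 402 CPM in the joint and 745, 751 and 466 CPM in the skin, where it was called higher than in migrated cells at both sites. Cdkn2b, which encodes p15, was at 6.51, 22.9 and 18.8 CPM in joint migrated and 25.4, 31.3 and 29.7 CPM in skin migrated cells, and at 0.0890 to 0.336 CPM in the steady-state libraries, near the 3-count floor of 0.0685 to 0.156 CPM.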

How the data were processed

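Paired-end RNA-seq of sorted CD45+ cells gave 18 libraries in 6 groups of 3. The shared protocol names a Kaede red+ sort, but KG in the titles of joint LN steady leaves green or red cells unsettled there. The deposited table holds raw counts per Ensembl gene: per the study's methods, the authors trimmed reads with Trim Galore, aligned them to mm10 with TopHat2 and counted with HTSeq under default settings, whose version, like the strand protocol of the kit, is not given in the sources used here. Exons shared with a gene on the opposite strand are therefore uncertain, which touches Kif20a (29.3% of its exon length), Ube2c (22.8%), Ccne2 (17.4%) and Ccna2 (12.5%), and Ccnb1, Ccnb2 and Pcna have named pseudogene copies. Rows that name no gene held 11.3% to 15.1% of each library and were left out.

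Symbols came from GENCODE M21. Counts were fitted with edgeR 4.0.16 (TMM, filterByExpr with a minimum count of 10, glmQLFit, glmQLFTest), in 2 fits of 12 libraries, the 4 inflamed groups (16777 genes) and the 4 lymph node groups (17107 genes), giving 9 comparisons. Calls used the study's limits, adjusted p under 0.05 and absolute log2 fold change over 1. SE is the log2 fold change over the root of F, and intervals used the moderated degrees of freedom. Alternatives were DESeq2 1.42.0, its size factors, no filter, other thresholds, other sample sets, a replicate block and each library left out. The members and all lists were chosen with earlier results of these data known. Any member could be named, with values in every library for Mki67, Top2a, the member of highest CPM in each role and, per comparison, the called members of largest change and smallest p. From other lists up to 3 called genes per comparison were taken by p. Promoter sequences are RefSeq's (GRCm38.p6). 7 members without an entry are Ccna2, Mcm4, Foxm1, Kif20a, Tpx2, Ccne2 and Aurkb.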

Additional observations from a re-analysis of the deposited data

Results flagged for a closer look

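In 8 cases the change of a member differed between joint and skin by a test of the interaction in edgeR (adjusted p under 0.05). For migrated against nonmigrated cells these were Aurkb at -1.41 and Cdt1 at 0.94 on the log2 scale, where a negative value means a smaller rise in the joint. For migrated cells against the steady-state node they were Ccne2 at -1.32, Ccna2 at -1.23, Rrm2 at -1.14, Tpx2 at -1.12, Uhrf1 at -1.05 and E2f1 at -0.85. Inflamed joint and skin libraries also differed in depth and in the form of their names, and neither can be told apart from site. Against the steady-state node, depth and kind of baseline cannot be told apart from the interaction either.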

How the results depend on the processing

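Counts are of the 42 members called. An adjusted p limit of 0.001 gave 2 for joint migrated against nonmigrated, 16 for skin migrated against nonmigrated, and 0 for joint against skin nonmigrated and for both interactions. No minimum fold change gave 13 for joint migrated against nonmigrated, 2 for the migration interaction and 9 for the steady-state nodes. No filter on low counts gave 3 for the migration interaction and 2 for the steady-state nodes, DESeq2 gave 7 and 1, and 1 fit of all 18 libraries gave 7 for the migration and 0 for the inflammation interaction. Fitting only the groups compared gave 4 for joint against skin nonmigrated and 1 for the steady-state nodes. The cause of these shifts was not tested.

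With 1 library left out, the count ran from 3 to 15 for joint migrated against nonmigrated, 36 to 39 for skin, 3 to 26 for joint against skin nonmigrated, 0 to 6 for the migration interaction (the 1 called without skin migrated library 1 was higher and not Aurkb), 34 to 36 and 35 to 39 against the joint and skin steady-state nodes, 0 to 3 between those nodes and 0 to 10 for the inflammation interaction. It was 0 each time for joint against skin migrated.

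Same-numbered libraries deviated together with correlations from 0.021 to 0.254 for migrated and nonmigrated cells and from -0.185 to -0.021 for migrated and steady-state cells. Differently numbered libraries were not compared, so these values cannot tell whether the numbers pair the libraries. The main fits used no pairing. A replicate block gave 0 for the migration interaction in place of 1 and changed no other count by over 1.5 times. With 3 pools a group, changes in joint nonmigrated cells of under about 1 log2 unit were within the spread between libraries for many members.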
